A study of Elaeis oleifera with 12 samples.

Results

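LOC105044409 encodes a metallothionein-like protein type 2 and is among the most abundant mRNA of the abscission zone (AZ) at the fruit base of Elaeis oleifera, the American oil palm. The locus was chosen by its identifier and for that abundance, and it is 1 of 29040 loci in the files. It is set here beside the 5 other loci whose description holds the word metallothionein. Fruit bases came from 2 palms of the same progeny. The non-shedding palm (NSd) is a variant that keeps its ripe fruit, and the other palm sheds its fruit normally (Sd). Each palm was sampled at the ripe and at the pre-ripe (PR) stage, which gave the 4 groups ripe NSd, PR NSd, ripe Sd and PR Sd. Every group holds 3 libraries, each from about 50 AZ pieces (about 3 g), and the 3 were sampled from the bunch of 1 palm. In the paper the PR bunch of a palm sat just above its ripe bunch, so the 2 stages are different bunches. The palm and the phenotype therefore cannot be told apart, nor can the stage and the bunch. All p-values speak only of how samplings of the same bunch vary.

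Metallothioneins are small proteins rich in cysteine, whose thiol groups bind metal ions such as copper and zinc. In plants they are known as metal buffers and as scavengers of reactive oxygen species, and their mRNAs are often among the most abundant of a tissue, fruits included. Plant metallothioneins are sorted into types by the arrangement of their cysteines. Among the 6 loci, 4 are described as type 2 and 2 (LOC105045670 and LOC105040637) as 2A.

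The 12 libraries hold between 19090375 and 34004517 aligned reads. Values are RPKM, reads per kilobase of transcript, scaled to the aligned reads of the library. The 3 PR NSd libraries stand apart from the rest. Over all loci their log2 values correlate at r = 0.937 to 0.964 with libraries of the other groups, which correlate at 0.966 to 0.988 among themselves. Reads on rRNA loci took 12.1 to 22.4% of the PR NSd libraries, against 1.21 to 13.4% in ripe NSd, 2.70 to 6.85% in ripe Sd and 4.68 to 5.49% in PR Sd. Since RPKM is relative to a total that includes rRNA, each difference of an abundant metallothionein that rests on PR NSd is also given on a scale that does not depend on that total.

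Among 26295 mRNA loci it ranked 1 in all 3 ripe NSd and all 3 PR Sd libraries. It ranked 2 in the 3 ripe Sd libraries, where early nodulin-75 (LOC105059233) was higher, and 2 or 3 in the PR NSd libraries, where a late embryogenesis abundant protein, Lea5 (LOC105045181), led. These ranks describe how the locus was chosen and carry no test. Its reads numbered 107546 to 195363 in ripe NSd, 77125 to 80018 in PR NSd, 134534 to 193905 in ripe Sd and 166326 to 244101 in PR Sd, so that counting error is small beside the spread between libraries. The share of all aligned reads on this locus was 0.684 ± 0.115% in ripe NSd, 0.376 ± 0.0396% in PR NSd, 0.723 ± 0.0694% in ripe Sd and 0.759 ± 0.0402% in PR Sd (SD, n = 3 each).

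LOC105044409 was at a similar level in 3 of the groups and lower in PR NSd. In ripe NSd it had 12808, 11903 and 9169.7 RPKM (mean 11294 ± 1894, SD, n = 3). In PR NSd it had 5629, 6077 and 6917 RPKM (6208 ± 654). In ripe Sd it had 13261, 11285 and 11267 RPKM (11938 ± 1146), and in PR Sd 11846, 13171 and 12555 RPKM (12524 ± 663). All 3 PR NSd libraries lie below the 9 others, and the libraries of the 3 other groups overlap each other. Ordered by their means, PR Sd, ripe Sd and ripe NSd follow each other without a step beyond the spread of their libraries, and PR NSd comes last. The lowest ripe NSd library (9169.7 RPKM) also has the highest rRNA share of its group, 13.4%, and the lowest PR NSd library (5629 RPKM) has the highest of all, 22.4%. Whether fewer cells of a type or less RNA per cell lies behind a lower level cannot be told apart in such bulk samples.

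**Figure D1:**
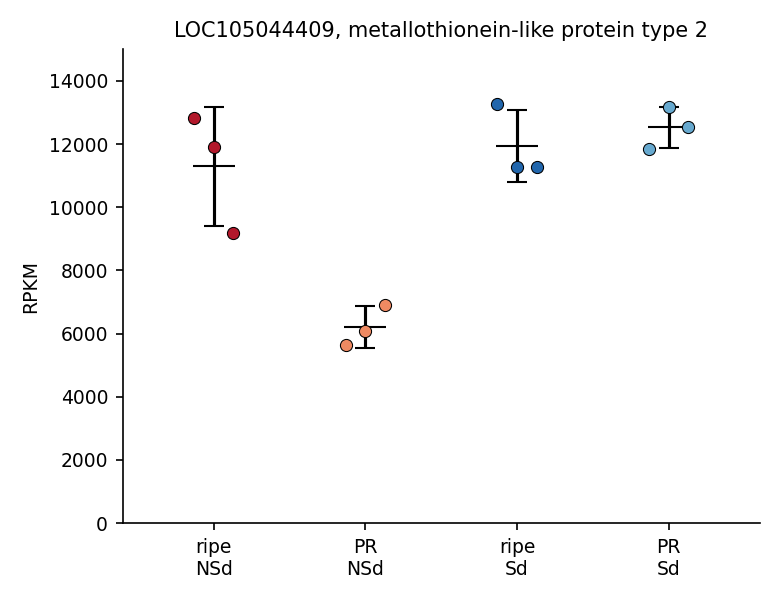
RPKM of LOC105044409 (vertical axis, from 0) in the 12 libraries, by group. Points are libraries, long bars are group means and whiskers are SD (n = 3). The PR NSd libraries, at 5629 to 6917 RPKM, lie below all others, which run from 9169.7 to 13261 RPKM.

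The groups were compared with limma on log2(RPKM + 1) over the 20495 loci that reach 1 RPKM in any library. To be called, a locus needed a Benjamini-Hochberg adjusted p under 0.01 together with a log2 fold change beyond 1 in either direction. The 4 comparisons share groups with each other, so that their values are not independent.

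Between the palms at the PR stage, LOC105044409 was lower in NSd. The log2 fold change of PR NSd against PR Sd was -1.02 (SE 0.16, 95% interval -1.38 to -0.66, limma adjusted p = 0.000432), which passes the call. The level was 2.02-fold higher in PR Sd on this scale. Of all loci tested, 12.9% were called in this comparison (3.36% higher and 9.53% lower in PR NSd), and the median log2 fold change of all loci was -0.35, so that LOC105044409 lay 0.67 below the median. Values rescaled by the median ratio, a factor per library that brings the typical locus to the same level, gave 7754, 7128 and 7881 in PR NSd against 11044, 12056 and 11632 in PR Sd. The groups still did not overlap, but the log2 fold change was -0.61 (limma adjusted p = 0.0132) and the call was lost. With rRNA reads left out of the totals it was -0.84 (limma adjusted p = 0.00123), which misses the limit on the fold change. On the rescaled values 5.75% of all loci were called higher and 4.59% lower in PR NSd.

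Between the ripe palms LOC105044409 did not pass the test. The log2 fold change of ripe NSd against ripe Sd was -0.09 (SE 0.16, 95% interval -0.45 to 0.27, limma adjusted p = 0.760), and 2.44% of all loci were called (0.815% higher and 1.63% lower in ripe NSd). The interval leaves out a change of 1 on the log2 scale in either direction. Without the lowest ripe NSd library the sign turned, at 0.05.

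Within the NSd palm the level was 11294 RPKM in ripe against 6208 RPKM in PR fruit bases, and the libraries did not overlap. The log2 fold change was 0.85 (SE 0.16, 95% interval 0.49 to 1.21, limma adjusted p = 0.00159), a 1.81-fold difference that passes the adjusted p but not the limit on the fold change. In this comparison 10.8% of all loci were called (7.77% higher and 3.07% lower in ripe fruit bases) and the median over all loci was 0.31. Rescaled by the median ratio, the log2 fold change was 0.49 (limma adjusted p = 0.0394), and 4.38% of all loci were then called higher and 5.2% lower, with a median of 0.02.

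Within the Sd palm the level did not pass the test between the stages. The log2 fold change of ripe against PR Sd was -0.07 (SE 0.16, 95% interval -0.43 to 0.29, limma adjusted p = 0.848), with 1.09% of all loci called (0.659% higher and 0.429% lower at the ripe stage). The difference between the stage changes of the palms, NSd minus Sd, was 0.93 (SE 0.23, 95% interval 0.42 to 1.44, limma adjusted p = 0.0101), just outside the call, which 13.3% of all loci passed (9.19% above and 4.07% below 0). Rescaled by the median ratio it was 0.58 (limma adjusted p = 0.0863), where 4.97% of all loci were called above and 6.18% below 0. Without the 3 PR NSd libraries the ripe palms gave the same -0.09 (limma adjusted p = 0.778) and the Sd stages the same -0.07 (limma adjusted p = 0.854).

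The next most abundant metallothionein, LOC105056944 (type 2), separated the groups more widely than LOC105044409 did. In ripe NSd it had 2687, 3614 and 2834 RPKM. In PR NSd it had 926, 1018 and 1017 RPKM. In ripe Sd it had 4414, 3894 and 3788 RPKM, and in PR Sd 6333, 6755 and 6152 RPKM. No pair of these groups overlaps, and the order is PR Sd, ripe Sd, ripe NSd and PR NSd. The log2 fold change of PR NSd against PR Sd was -2.70 (SE 0.14, limma adjusted p = 1.91e-07), 6.49-fold lower in NSd. That of ripe against PR in NSd was 1.61 (SE 0.14, limma adjusted p = 7.73e-06). Rescaled by the median ratio these were -2.29 and 1.25, and still called, while the ripe palms then overlapped (2412 to 3382 in ripe NSd against 3311 to 4241 in ripe Sd). In Sd the stages gave -0.67 (limma adjusted p = 0.0158) and the ripe palms -0.41 (limma adjusted p = 0.0741), neither of them called.

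On the log2(RPKM + 1) scale LOC105056942 (type 2) had the widest differences of the 6 loci in both comparisons with PR NSd. It had 547, 671 and 514 RPKM in ripe NSd and 24.6, 31.0 and 25.7 RPKM in PR NSd. It had 723, 426 and 388 RPKM in ripe Sd and 398, 407 and 488 RPKM in PR Sd. PR NSd stands alone at the low end, and the ripe Sd libraries overlap those of ripe NSd and of PR Sd. The log2 fold change of PR NSd against PR Sd was -3.94 (SE 0.21, limma adjusted p = 2.13e-07), 15.4-fold lower in NSd, and that of ripe against PR in NSd was 4.36 (SE 0.21, limma adjusted p = 2.45e-07), 20.5-fold higher at the ripe stage. Rescaled by the median ratio these were -3.55 and 4.01, and still called. The ripe palms (0.22, limma adjusted p = 0.523) and the Sd stages (0.20, limma adjusted p = 0.633) did not pass.

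LOC105045670 (2A) was called in no comparison. It had 382, 228 and 185 RPKM in ripe NSd, 121, 134 and 150 RPKM in PR NSd, 315, 245 and 206 RPKM in ripe Sd and 195, 211 and 257 RPKM in PR Sd. The PR NSd libraries were again the lowest, with a log2 fold change of -0.70 against PR Sd (SE 0.24, limma adjusted p = 0.0272), and of 0.90 for ripe against PR in NSd (limma adjusted p = 0.00933). After rescaling by the median ratio the value against PR Sd was -0.30 (limma adjusted p = 0.311) and that of ripe against PR in NSd was 0.54 (limma adjusted p = 0.0811).

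The 2 remaining loci rest on few reads. LOC105044410 (type 2) had 1, 0 and 0 reads in ripe NSd and 1, 6 and 4 in PR NSd, against 23, 24 and 25 in ripe Sd and 70, 39 and 26 in PR Sd. It passed the filter through the Sd libraries alone, the highest at 2.90 RPKM, so a difference between the palms was already part of how it entered the test. It was called lower in ripe NSd than in ripe Sd (log2 fold change -1.32 on the log2(RPKM + 1) scale, limma adjusted p = 0.00111) and lower in PR NSd than in PR Sd (-1.43, limma adjusted p = 4.62e-05). By reads per aligned reads the ratio of ripe NSd to ripe Sd was 0.0129, with a 95% counting interval of 0.000323 to 0.0743. LOC105040637 (2A) had 29 reads in PR NSd library 1 and 0 to 5 in each of the 11 others, reached 1 RPKM in that library alone and was not called.

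**Figure D2:**
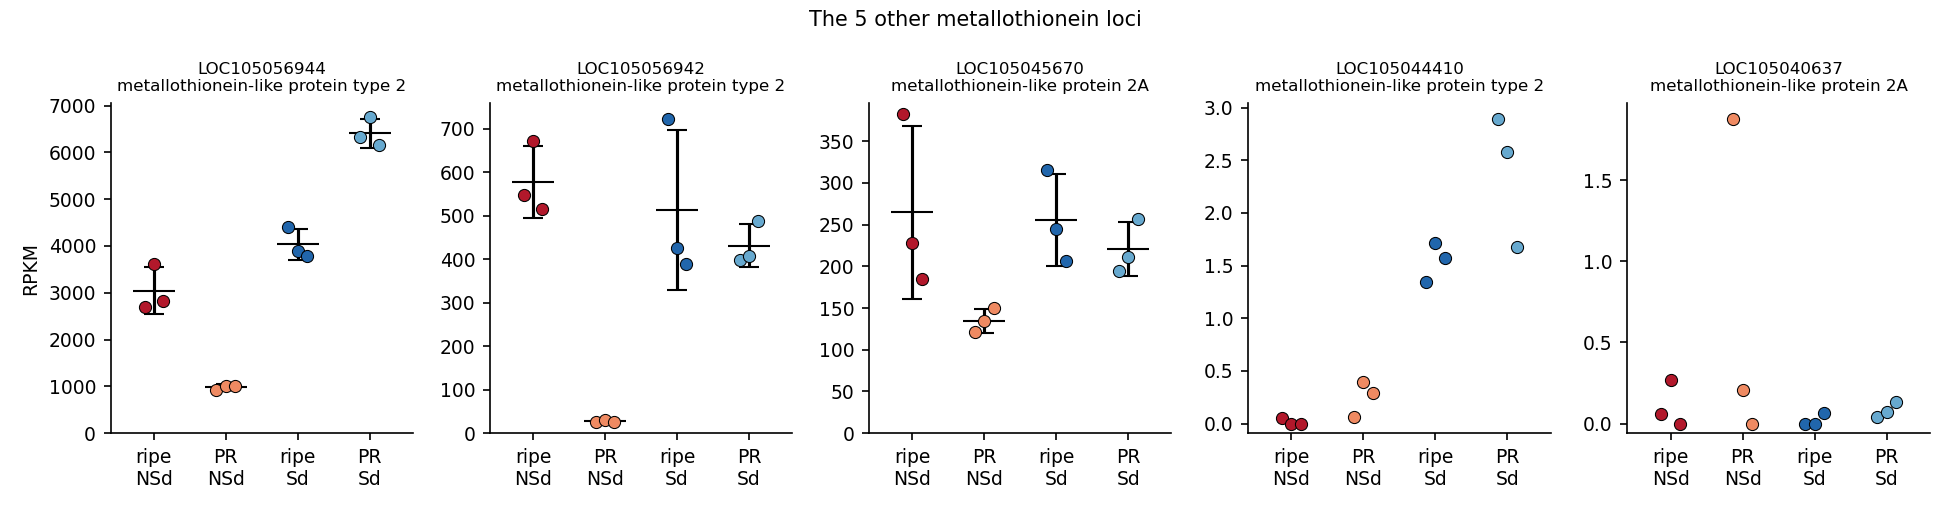
RPKM of the 5 other metallothionein loci (vertical axes, 1 scale per panel) in the 12 libraries, by group. Points are libraries, and bars with whiskers are mean and SD (n = 3), left out for the 2 loci with reads near 0. LOC105056942 lies at 24.6 to 31.0 RPKM in PR NSd and at 388 RPKM or more in every other library.

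Counted together, 0 of the 6 metallothionein loci were called higher and 4 lower in PR NSd than in PR Sd, where 9.53% of all loci were called lower. The median log2 fold change of the 6 was -1.22, against -0.35 over all loci. With either other scaling 3 were called, all but LOC105044409, beside 4.59% (median ratio) and 7.15% (rRNA left out) of all loci called lower. In ripe against PR NSd 2 were called higher and 0 lower, beside 7.77% and 3.07% of all loci. Between the ripe palms 0 were higher and 1 lower, LOC105044410, beside 0.815% and 1.63%, and between the Sd stages limma called 0 of the 6, beside 1.09% of all loci, where 2 had an unadjusted p under 0.05 (LOC105056944 and LOC105044410), beside 22.5% of all loci. The filter was met by LOC105044410 and LOC105040637 only through libraries in which they were high, so these counts describe the family and support nothing further.

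**Figure D3:**
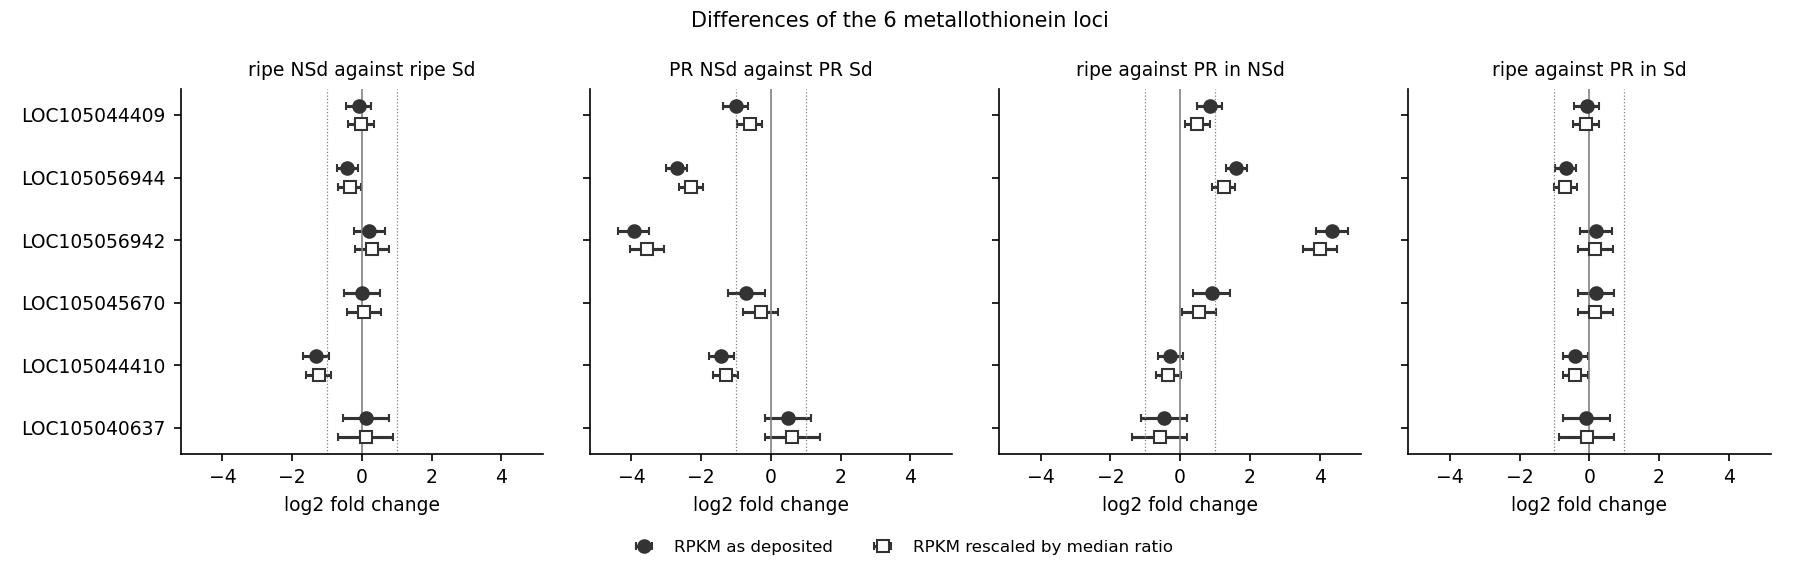
Log2 fold changes (horizontal axes) of the 6 metallothionein loci in the 4 comparisons, with 95% intervals from limma. Filled circles use RPKM as deposited and open squares RPKM rescaled by the median ratio, with dotted lines at the fold limit. For LOC105044409 in PR NSd against PR Sd the values are -1.02 and -0.61, on either side of that limit.

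Because the loci moved by different amounts, the make-up of the metallothionein reads differed between the groups. LOC105044409 took 72.6 ± 3.41% of them in ripe NSd, 83.3 ± 0.899% in PR NSd, 69.6 ± 0.63% in ripe Sd and 62.1 ± 0.751% in PR Sd (SD, n = 3 each). LOC105056944 took 21.3 ± 3.48% in ripe NSd, 14.4 ± 0.844% in PR NSd, 25.4 ± 0.537% in ripe Sd and 34.3 ± 1.10% in PR Sd. The share of LOC105044409 was thus highest where its own level was lowest. All 6 loci together took 0.941 ± 0.132% of aligned reads in ripe NSd, 0.451 ± 0.0432% in PR NSd, 1.04 ± 0.107% in ripe Sd and 1.22 ± 0.0553% in PR Sd.

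The ratio of LOC105044409 to LOC105056944 in RPKM needs no library total and so is untouched by rRNA. It was 3.77 ± 0.868 in ripe NSd, 6.28 ± 0.451 in PR NSd, 2.96 ± 0.0548 in ripe Sd and 1.95 ± 0.0853 in PR Sd (SD, n = 3 each). The libraries of the groups did not overlap in any of the 4 comparisons. Each gave p = 0.1 in a two-sided exact permutation test on the log2 ratio, the smallest that 3 against 3 libraries allow, so that none can pass 0.05 and adjustment over the 4 leaves 0.1. How reads that fit more than 1 of these loci were assigned is not given in the sources used here, and if the transcripts share stretches, the split between them is uncertain.

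**Figure D4:**
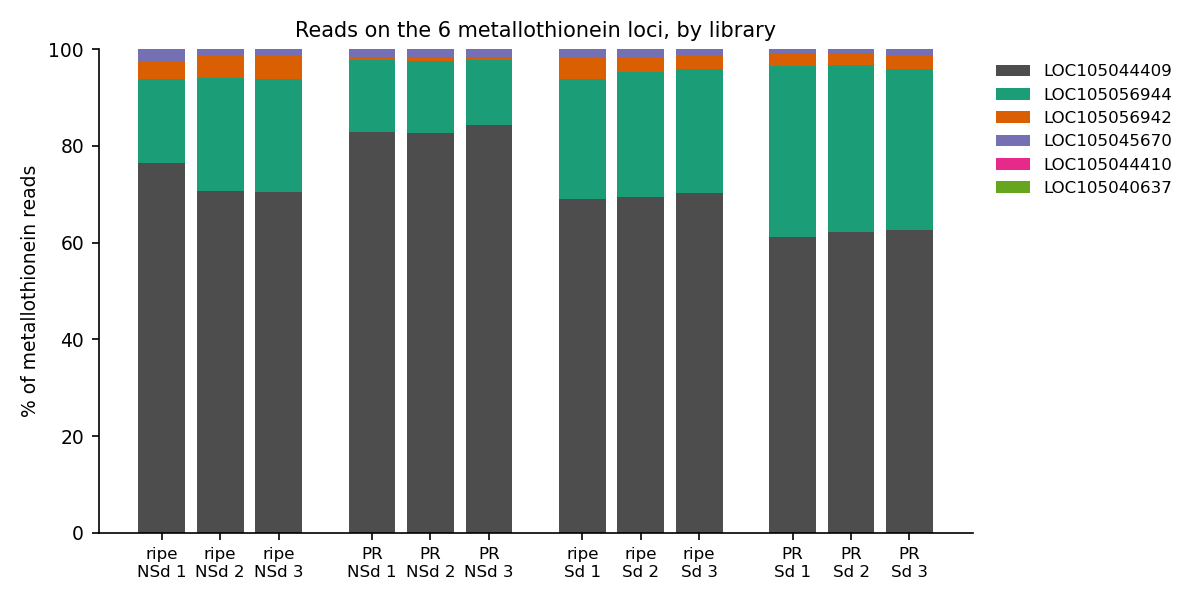
Share of the reads on the 6 metallothionein loci (vertical axis, %) that each locus took, by library. LOC105044409 takes 82.7 to 84.3% in the PR NSd libraries and 61.2 to 62.7% in the PR Sd libraries, and LOC105044410 and LOC105040637 are too small to be seen.

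The other loci at the top of the abundance order behaved in several ways across the groups. Leaving out rRNA, 1 locus had a higher mean than LOC105044409 over the 12 libraries, the uncharacterized non-coding RNA LOC105048074. It ran in the other direction, with 17671 RPKM in ripe NSd and 40412 in PR NSd, against 21440 in ripe Sd and 25515 in PR Sd. Its log2 fold change of ripe against PR in NSd was -1.19 (limma adjusted p = 0.000119). Next below came early nodulin-75, a proline-rich protein known from legume nodules, with 4225 RPKM in ripe NSd, 409.7 in PR NSd, 15276 in ripe Sd and 9736 in PR Sd. It was called lower in NSd at the ripe stage (-1.87, limma adjusted p = 0.00193) and at the PR stage (-4.65, limma adjusted p = 3.35e-07). LEA protein Lea5 had 5746 RPKM in ripe NSd, 7633 in PR NSd, 5121 in ripe Sd and 6405 in PR Sd and was called in no comparison. The non-coding RNAs LOC105040880 and LOC105045469 were not called either. The mannose/glucose-specific lectin LOC105053474 was lower in PR NSd than in PR Sd (1242 against 7128 RPKM, log2 fold change -2.53, limma adjusted p = 6.67e-05).

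The loci most like LOC105044409 were sought among 5866 described loci of at least 20 RPKM in some group, by Pearson's r of log2(RPKM + 1) over the 12 libraries. The values are a description, since the libraries share depth, rRNA share and the separate position of PR NSd. Highest were transcription factor MYB1 (LOC105052148, r = 0.983), probable protein S-acyltransferase 14 (LOC105042711, 0.981), a putative vesicle-associated membrane protein (LOC105053458, 0.981), the NEDD8-conjugating enzyme Ubc12 (LOC105035331, 0.981) and 7-dehydrocholesterol reductase (LOC105050866, 0.980). The median over the loci compared was 0.61, and 662 of them reached 0.9. Over the 9 libraries without PR NSd, r was 0.779 to 0.831 for these 5. MYB1, a transcription factor, had 20.5, 19.1 and 16.2 RPKM in ripe NSd, 8.58, 9.42 and 9.96 in PR NSd, 21.6, 18.6 and 19.9 in ripe Sd and 23.3, 23.3 and 22.5 in PR Sd. Its log2 fold change of PR NSd against PR Sd was -1.22, at levels far below those of LOC105044409. That of the others was -0.53 (LOC105042711), -0.69 (LOC105053458), -0.85 (LOC105035331) and -1.30 (LOC105050866). The choice by r used the PR NSd libraries, so a lower value there was part of the choice and carries no test. Within the family, r with LOC105044409 was 0.938 for LOC105056942, 0.925 for LOC105056944 and 0.871 for LOC105045670 over 12 libraries. For the loci of few reads it was 0.524 (LOC105044410) and -0.587 (LOC105040637). Without PR NSd the values were 0.192 for LOC105056942, 0.488 for LOC105056944, 0.605 for LOC105045670, 0.386 for LOC105044410 and 0.235 for LOC105040637, so that much of the likeness of the abundant loci rests on those 3 libraries.

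Other loci of metal handling and of peroxide and superoxide removal were taken from 8 lists by their descriptions, 193 loci of which 132 were tested. In PR NSd against PR Sd 8 were called higher and 26 lower, 25.8% of those tested, beside 12.9% of all loci. In ripe against PR NSd 21 were higher and 8 lower, 29 of the 132 tested, beside 10.8% of all loci. Between the ripe palms 2 were higher and 3 lower (2.44% of all loci called), and between the Sd stages 0 were higher and 5 lower (1.09% of all loci called). With median ratio scaling the balance was more even. In PR NSd against PR Sd 11 were then higher and 16 lower, beside 5.75% and 4.59% of all loci. In ripe against PR NSd 16 were higher and 12 lower, beside 4.38% and 5.2%.

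The list with the lowest median in PR NSd against PR Sd was that of nicotianamine, a metal chelator, and of the YSL transporters that carry its metal complexes. Of its 8 loci tested, 0 were higher and 6 lower in PR NSd than in PR Sd, with a median log2 fold change of -1.43, beside 3.36% higher and 9.53% lower of all loci. In ripe against PR NSd 5 were higher and 0 lower, beside 7.77% and 3.07%. With the median ratio scaling 4 were lower in PR NSd, with a median of -1.08, beside 4.59% of all loci. YSL12 (LOC105058945) had 0.561, 0.286 and 0.402 RPKM in PR NSd against 9.54, 9.79 and 8.34 in PR Sd, without overlap (log2 fold change -2.85, limma adjusted p = 1.68e-07). YSL9 (LOC105043473) gave -1.92 (limma adjusted p = 1.19e-06). Nicotianamine aminotransferase A (LOC105040940), an enzyme of phytosiderophore synthesis in grasses, averaged 1.85 RPKM in PR NSd and 22.8 RPKM in PR Sd (-3.06, limma adjusted p = 1.97e-06), and it was also lower in ripe than in PR Sd (-1.44, limma adjusted p = 0.00557). That last call was lost when any of 6 of the 12 libraries was left out.

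The heavy metal-associated isoprenylated proteins, lipid-anchored proteins with a metal-binding domain, moved in both directions. Of 42 tested, 7 were higher and 12 lower in PR NSd than in PR Sd, beside 3.36% and 9.53% of all loci, and with the median ratio scaling 8 were higher and 8 lower, beside 5.75% and 4.59%. Of these called loci the 2 most abundant in PR NSd were higher there, and they were chosen after their values were seen. Sorting by the level in PR NSd favours loci that are higher there, so their direction is no result. LOC105044027 averaged 1369 RPKM in PR NSd and 695 RPKM in PR Sd (1.00, limma adjusted p = 0.00123), and LOC105060500 averaged 805 RPKM in PR NSd and 292 RPKM in PR Sd (1.43, limma adjusted p = 0.000447). Sorted by the level in PR Sd, the highest called locus was protein 39 (LOC105043330), which was lower in PR NSd. It averaged 627 RPKM in PR NSd and 1596 RPKM in PR Sd (-1.35, limma adjusted p = 8.99e-06). That value was -0.94 after rescaling, which misses the fold limit. The loci of proteins 43-like (LOC109505481, -2.61, limma adjusted p = 5.74e-05) and 9 (LOC105054251, -1.72, limma adjusted p = 1.74e-05) were lower as well, at no more than 5.80 RPKM in either group mean. LOC105054251 met the filter through Sd libraries alone, so that a lower value in NSd was part of how it entered the test.

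Of 23 loci of superoxide dismutase, catalase and ascorbate peroxidase tested, 1 was higher and 4 were lower in PR NSd than in PR Sd, beside 3.36% and 9.53% of all loci. With median ratio scaling 1 was called higher and 2 lower, beside 5.75% and 4.59%. Catalase isozyme 2 (LOC105054906), which breaks down hydrogen peroxide, averaged 1371 RPKM in PR NSd and 3013 RPKM in PR Sd (-1.14, limma adjusted p = 4.96e-05), but missed the fold limit after rescaling at -0.73. Catalase isozyme 1 (LOC105033846) went the other way at a far lower level, with 4.43 RPKM in PR NSd and 1.61 RPKM in PR Sd. Cytosolic ascorbate peroxidase (LOC105045793) averaged 36.8 RPKM in PR NSd and 132 RPKM in PR Sd (-1.84, limma adjusted p = 5.00e-06). Another locus of the same description, LOC105034165, averaged 210 RPKM in PR NSd and 215 RPKM in PR Sd, so the copies differ. A copper-zinc superoxide dismutase (LOC105036933) gave -1.23 (limma adjusted p = 5.81e-05), and -0.83 after rescaling.

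Of the 4 loci of ferritin, the iron storage protein, and of frataxin that were tested, 1 was called lower in PR NSd than in PR Sd and 1 in ripe NSd than in ripe Sd (9.53% and 1.63% of all loci). Ferritin-4 LOC105033645 averaged 11.8 RPKM in PR NSd and 44.1 RPKM in PR Sd (-1.83, limma adjusted p = 1.91e-07). Ferritin-4 LOC105045883 averaged 79.5 RPKM in ripe NSd and 214 RPKM in ripe Sd (-1.42, limma adjusted p = 0.000448). Each also lay below Sd at the other stage, short of the fold limit. LOC105033645 gave -0.58 between the ripe palms (limma adjusted p = 0.00371), and -0.51 after rescaling (limma adjusted p = 0.00352). LOC105045883 gave -0.86 between the PR palms (limma adjusted p = 0.000796). After rescaling it gave -0.46 there (limma adjusted p = 0.0191), which misses the limit on the adjusted p as well. Calls in the transport lists stand beside these shares of all loci. They were 2.44% between the ripe palms, 12.9% between the PR palms and 10.8% in ripe against PR NSd. Of 17 loci of copper transport and chaperones, copper transporter 1 (LOC105049922) was lower in ripe NSd than in ripe Sd (-1.66, limma adjusted p = 0.000724) at 2.29 RPKM in ripe Sd, having met the filter through Sd libraries alone, and the ATPase PAA1 (LOC105048622) was lower in PR NSd than in PR Sd (-1.42, limma adjusted p = 0.000198). Of the same 17 loci, 2 were higher in ripe than in PR NSd. They were PAA1 (1.18, limma adjusted p = 0.000852) and the copper ATPase HMA5 (LOC105034596, 1.23, limma adjusted p = 0.000249). HMA5 missed the fold limit after rescaling at 0.93. Of 16 loci of zinc and iron uptake, zinc transporter 4 (LOC105059891) exceeded its ripe Sd level in ripe NSd (1.80, limma adjusted p = 0.00785) and Nramp6 (LOC105058435) was below its ripe Sd level (-1.07, limma adjusted p = 0.00851), and either call was lost when any of 9 of the 12 libraries was left out. Of 19 loci of metal efflux and vacuolar transport, vacuolar iron transporter 1.1 (LOC105032656) was likewise above ripe Sd in ripe NSd (1.09, limma adjusted p = 0.00265), a call lost without any of 4 libraries, and it met the filter through the ripe NSd libraries alone. The ATPases HMA2 (LOC105043244, -1.04, limma adjusted p = 0.000298) and HMA3 (LOC105049304, -1.18, limma adjusted p = 0.000987) were lower in PR NSd than in PR Sd, but gave -0.68 and -0.85 after rescaling, neither of them called. None of the 4 loci of glutathione and phytochelatin synthesis was called by limma in any of the 4 comparisons.

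**Figure D5:**
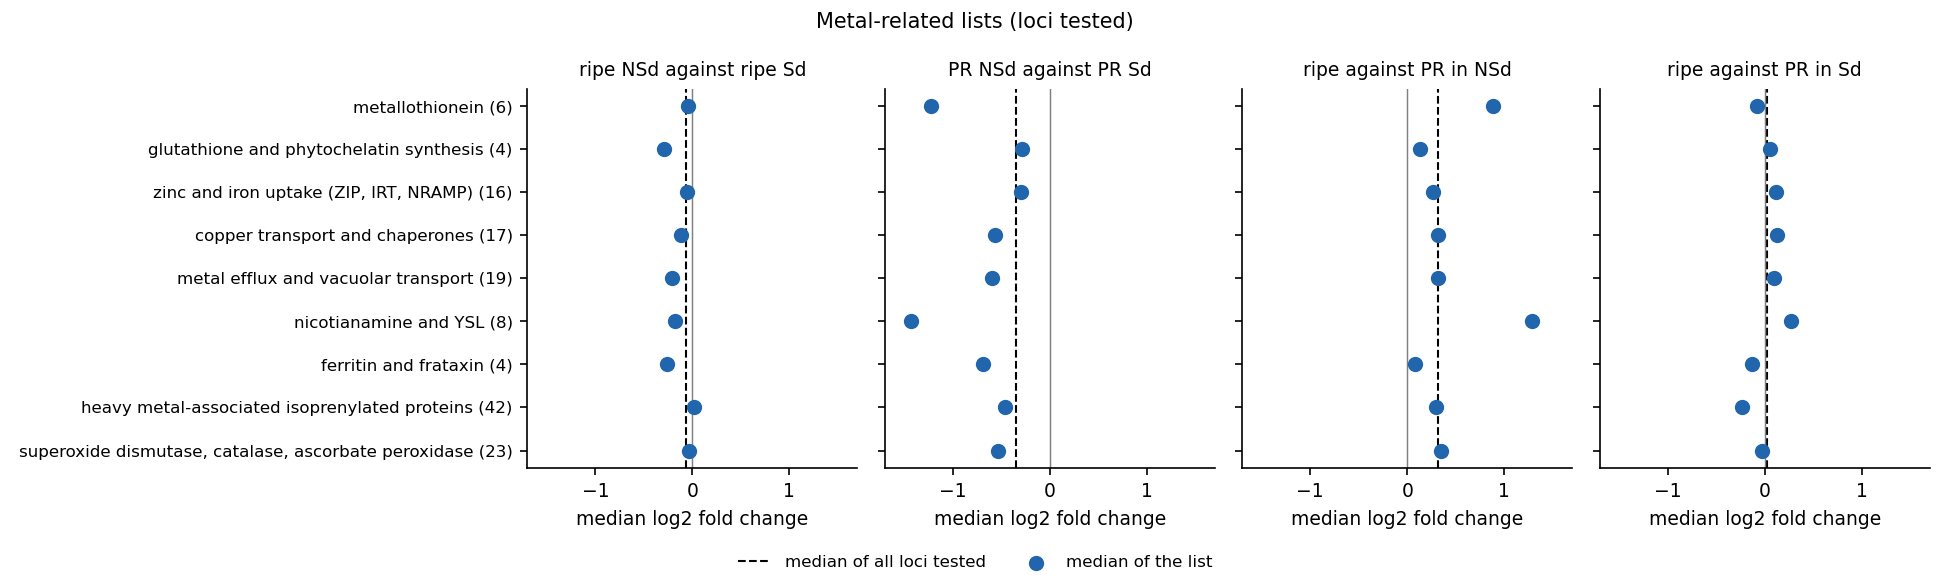
Median log2 fold change (horizontal axes) of the loci tested in each metal-related list (number in brackets), in the 4 comparisons. Points are list medians and the dashed line is the median of all loci tested. In PR NSd against PR Sd the medians of the metallothioneins (-1.22) and of nicotianamine and YSL (-1.43) lie farthest below that of all loci (-0.35).

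Markers of other tissues that a fruit base can hold were summed in each library, and the sums for photosynthesis and lignin set PR NSd apart. The summed RPKM of 54 photosynthesis loci, a sign of green tissue, was 3589 to 4658 in ripe NSd, 580 to 624 in PR NSd, 2646 to 4000 in ripe Sd and 4080 to 4461 in PR Sd. Most of that sum came from 1 locus of photosystem I, subunit IV A (LOC105053650), with 411 RPKM in PR NSd and 3962 RPKM in PR Sd. The next by mean, a ribulose bisphosphate carboxylase small chain (LOC105039639), had 21.7 RPKM in PR NSd and 30.6 in PR Sd. Subunit IV B (LOC105043122) did not follow the sum, with 19.9 RPKM in ripe NSd, 24.5 in PR NSd, 20.2 in ripe Sd and 30.9 in PR Sd. The 64 loci of lignin synthesis summed to 552 to 669 RPKM in PR NSd and to 829 RPKM or more in every other library. Here too the low sum leaned on 1 locus, cinnamyl alcohol dehydrogenase 2 (LOC105061001). It averaged 416 RPKM in ripe NSd, 202 in PR NSd, 615 in ripe Sd and 662 in PR Sd. The next locus by mean, LOC105052938, went the other way between the PR palms, at 218 RPKM in PR NSd and 85.5 in PR Sd. The 60 loci of plastid fatty acid synthesis summed to 3815 to 5268 RPKM in ripe NSd, 2916 to 3041 in PR NSd, 2266 to 3559 in ripe Sd and 3938 to 4026 in PR Sd, so that ripe Sd spans PR NSd. The 36 seed loci, led by Lea5, summed to 6968 to 8182 RPKM in ripe NSd, 8972 to 10541 in PR NSd, 5807 to 7666 in ripe Sd and 7277 to 10017 in PR Sd, and the PR groups overlap. Most of that sum came from Lea5 (LOC105045181), with 7633 RPKM in PR NSd and 6405 in PR Sd. The next by mean, LOC105039860 and LOC105052533, are described as Lea5 and Lea5-D, so the sum says little of storage proteins or oleosin. Loci with polygalacturonase in their description, enzymes of cell separation and their inhibitor, summed to 399 to 704 RPKM in ripe NSd, 434 to 462 in PR NSd, 378 to 652 in ripe Sd and 226 to 330 in PR Sd, the ripe groups spanning PR NSd, and 12 of these 58 were at 0 in every library. The numbers of the other lists at 0 in every library were 2 for photosynthesis, 9 for lignin, 4 for fatty acid synthesis and 6 for seed. Of the polygalacturonase loci the highest by mean was the inhibitor (LOC105050208). It averaged 92.7 RPKM in ripe NSd, 232 in PR NSd, 84.0 in ripe Sd and 59.3 in PR Sd, so the PR NSd sum leaned on it. The part of these tissues and of the rRNA share in the lower level of LOC105044409 in PR NSd was not tested.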

How the data were processed

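RNA of 12 AZ samples was sequenced as single reads on an Illumina NovaSeq. The authors trimmed reads with Bcl2fastq 2.20.0.422, aligned them with BWA-MEM to the E. guineensis transcriptome, counted them with Samtools, merged the transcripts of a locus and deposited RPKM values, 1 file per library. Since the deposited values are RPKM and not counts, limma 3.58.1 (R 4.3.3) was used on log2(RPKM + 1) with a mean-variance trend and 1 mean per group, at the thresholds of the study. A row without a locus in each file was left out. Reads were recovered from the RPKM steps: library totals came out whole within 7.5e-09, and the values of the 6 metallothionein and 109 rRNA loci are whole reads within 0.0001. They served for shares and low loci, not for tests. Intervals on reads cover counting error only. The fit was tested on simulated data. Loci were named by rule: LOC105044409, the 5 other metallothioneins, the 5 loci most like it, its neighbours in abundance and up to 3 called loci per list. Those of a list had its smallest adjusted p, so their values are extremes of the list. LOC105044027, LOC105060500, LOC105034165 and LOC105033846 were named after their values were seen. Marker loci were named from the highest by mean. The locus, lists and tests were chosen with earlier results of these data known. The fit without PR NSd was added after seeing the data. No sequences are shown, because no table of them was used here. Python 3.11.15 with scipy 1.17.1, pandas 2.3.3 and numpy 2.4.6 made the tables, and matplotlib 3.10.9 the plots.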

Additional observations from a re-analysis of the deposited data

Results flagged for a closer look

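For 2 metallothionein loci the change between the stages differed between the palms in a test of that difference itself. LOC105056944 gave an interaction of 2.28 on the log2 scale (SE 0.20, limma adjusted p = 3.06e-05), with ripe against PR at 1.61 in NSd and -0.67 in Sd. LOC105056942 gave 4.16 (SE 0.30, limma adjusted p = 1.07e-05), with 4.36 in NSd and 0.20 in Sd. After rescaling by the median ratio these were 1.94 and 3.83, and both were still called.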

How the results depend on the processing

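The lower level of LOC105044409 in PR NSd kept its direction under all 21 alternatives but lost the call under 5. PR NSd against PR Sd was -0.61 (limma adjusted p = 0.0132) with median ratio scaling, -0.84 (0.00123) with rRNA out of the totals and -1.02 (0.0389) without the filter on low loci. Leaving out each library in turn gave -1.10 to -0.95, and the call was lost without PR NSd replicate 1 (-0.95) and without PR Sd replicate 2 (-0.98), since the fold limit lies close. The mean level moved to 7588 RPKM in PR NSd and 11577 RPKM in PR Sd with median ratio scaling, and to 7360 RPKM in PR NSd and 13208 RPKM in PR Sd with rRNA out of the totals. For the ripe palms, leaving out a library gave -0.19 to 0.053, with the turn in sign without ripe NSd replicate 3. At an adjusted p under 0.05 with no fold limit, ripe against PR in NSd (0.85) and the interaction (0.93) passed. At that limit 4 metallothionein loci passed in ripe against PR NSd and 1 in ripe against PR Sd, beside 47% and 7.05% of all loci. Without ripe NSd replicate 3 the interaction of LOC105044409 met the main call (1.07, limma adjusted p = 0.00362). That was its highest value when a library is left out, against a lowest of 0.83. LOC105056944 and LOC105056942 kept their calls in PR NSd against PR Sd and in ripe against PR NSd under every alternative run.

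Signs turned for values near 0: LOC105056942 between the Sd stages (-0.077 without ripe Sd replicate 1, and up to 0.37 without another library), LOC105045670 between the ripe palms (-0.29 without ripe NSd replicate 1, -0.01 and -0.14 without ripe Sd replicates 2 and 3, and up to 0.23 without another library) and the interaction of LOC105044410 (-0.88 with a pseudocount of 0.1, -0.00226 without PR NSd replicate 1 and -0.000246 without PR Sd replicate 1, and up to 0.27 without another library). LOC105040637 has no value without PR NSd replicate 1, through which alone it met the filter. Only the loci named for the smallest adjusted p, up to 3 per metal list, were followed through the alternatives. Of their 29 calls, 17 held under every alternative run and 12 were lost under some. The other calls in the lists were not followed in this way. HMA2 was lost without either of 2 libraries. No paired analysis was possible because the replicate numbers only name samplings of a group. With 19090375 reads in the smallest library, depth limits LOC105044410, LOC105040637 and the other named loci near 0 RPKM, among them LOC105032656, LOC105049922 and LOC105054251.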
